A study of Mus musculus with 6 samples.

Results

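The subject here is the cholesterol pathway in mouse mammary tumors: 33 genes for sterol synthesis, control by SREBP2, uptake, storage and efflux. The genes were taken by symbol from a list of the pathway's enzymes and regulators. The list was chosen with earlier results of these data known. All 33 were found among the 54232 gene identifiers of each count table and were among the 16752 genes tested. RNA was sequenced from 3 CdGAP fx/fx tumor libraries (fx1, fx2 and fx3) and 3 CdGAP wt/wt tumor libraries (wt1, wt2 and wt3), all from NIC+ mice. The NIC transgene puts an activated ErbB2 (Neu) receptor and Cre recombinase under a viral promoter (MMTV) that is active in mammary epithelium, so both genotypes carry the oncogene and Cre. In fx/fx mice Cre can recombine both copies of Arhgap31, the gene of CdGAP, a GTPase-activating protein for Cdc42 and Rac1. Cells of the tumor that do not use this promoter, such as fibroblasts, adipocytes and blood vessels, keep the gene. The labels give no age or sex, nor whether each library is a different animal, and every p-value therefore reflects only the spread among these samples, which may be technical.

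Cells make cholesterol from acetyl-CoA through mevalonate, prenyl diphosphates, squalene and lanosterol. When sterol in the endoplasmic reticulum is low, SCAP carries SREBP2 to the Golgi, where proteases release the part of SREBP2 that switches on the synthesis genes, and INSIG proteins hold SCAP back when sterol is plentiful. When sterol is abundant, oxysterols activate the LXR receptors, whose targets export cholesterol, and SOAT1 stores it as ester in lipid droplets. Mammary epithelium makes lipid for milk, and this pathway is active in it during lactation.

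SREBP2 is known to bind promoters together with NF-Y, which recognises CCAAT, and Sp1, which recognises GC boxes. The RefSeq promoters of 5 enzyme genes are printed below, from 250 bases before to 50 bases after the gene start on build GRCm38.p6, read along the gene's strand. Hmgcs1 (chr13:119690101-119690400, plus strand), Mvd (chr8:122443373-122443672, minus strand) and Msmo1 (chr8:64733529-64733828, minus strand) are shown because these genes were among the most different between the genotypes. Lss (chr10:76531355-76531654, plus strand) and Ebp (chrX:8193463-8193762, minus strand) belong to the same pathway but had fold changes near or below 1, and are shown beside them. Capitals mark matches, on either strand, to a sterol regulatory element (TCACNCCAC), a CCAAT box (CCAAT, or ATTGG on the other strand) and a GC box (GGGCGG, or CCGCCC on the other strand). No marked matches overlapped in these 5 windows.
Hmgcs1: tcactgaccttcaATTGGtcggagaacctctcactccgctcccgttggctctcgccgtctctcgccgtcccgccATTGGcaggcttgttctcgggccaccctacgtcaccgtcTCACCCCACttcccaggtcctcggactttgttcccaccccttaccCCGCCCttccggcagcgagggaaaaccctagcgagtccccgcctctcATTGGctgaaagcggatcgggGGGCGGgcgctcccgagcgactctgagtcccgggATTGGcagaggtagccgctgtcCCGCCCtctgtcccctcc
Mvd: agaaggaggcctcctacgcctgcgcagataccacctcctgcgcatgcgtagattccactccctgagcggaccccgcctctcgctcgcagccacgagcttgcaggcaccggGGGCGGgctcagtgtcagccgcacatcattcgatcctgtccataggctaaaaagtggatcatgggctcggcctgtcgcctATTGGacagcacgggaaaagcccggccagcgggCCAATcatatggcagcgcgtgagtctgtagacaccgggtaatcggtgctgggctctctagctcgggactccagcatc
Msmo1: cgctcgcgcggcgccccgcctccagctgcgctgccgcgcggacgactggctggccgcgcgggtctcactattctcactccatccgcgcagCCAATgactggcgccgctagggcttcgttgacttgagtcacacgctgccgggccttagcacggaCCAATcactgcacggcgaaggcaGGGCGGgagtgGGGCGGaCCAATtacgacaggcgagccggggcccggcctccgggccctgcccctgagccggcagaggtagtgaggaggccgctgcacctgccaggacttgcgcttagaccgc
Lss: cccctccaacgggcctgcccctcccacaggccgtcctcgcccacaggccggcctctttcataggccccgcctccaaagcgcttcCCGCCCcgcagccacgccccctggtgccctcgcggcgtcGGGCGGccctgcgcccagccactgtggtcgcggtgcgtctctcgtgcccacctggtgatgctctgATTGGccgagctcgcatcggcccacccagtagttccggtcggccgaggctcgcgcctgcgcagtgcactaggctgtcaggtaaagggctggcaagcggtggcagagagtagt
Ebp: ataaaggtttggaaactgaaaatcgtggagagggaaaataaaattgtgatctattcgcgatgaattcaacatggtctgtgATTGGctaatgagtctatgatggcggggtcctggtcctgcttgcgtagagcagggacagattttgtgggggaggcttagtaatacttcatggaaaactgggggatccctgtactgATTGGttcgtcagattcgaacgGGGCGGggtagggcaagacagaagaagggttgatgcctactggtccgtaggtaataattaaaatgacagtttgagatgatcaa

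Among the 5, the sterol element was matched in the Hmgcs1 window alone, from base -137 to base -129 relative to the gene start, and all 5 windows held at least 1 CCAAT box and at least 1 GC box. Msmo1 had 3 CCAAT boxes in the orientation of the gene, and Hmgcs1 had 4, all on the opposite strand. RefSeq windows were given for 27 of the 33 genes, some with several start sites, and a gene was counted where any of its windows held a match. A CCAAT box was present in 22 of the 27 (81.5%), against 41.1% of the 27025 genes of the table and 42.2% of the 11595 genes in it that were tested. Of the 16 synthesis enzymes with a window, 15 held one. GC boxes were matched for 22 of the 27 genes (81.5%) as well, against 38.2% of all genes of the table and 66.1% of the tested genes in it. The sterol element was matched for 1 of the 27 genes (3.7%), against 1.44% of all genes of the table and 1.35% of the tested genes in it. Lss and Ebp carried the same 2 kinds of box as Msmo1 and Mvd, so these letters did not separate the genes with large fold changes from those without. Only exact matches to TCACNCCAC within these windows were counted, so a sterol element of another sequence or place would be missed. Sqle, Fdps and Fdft1 were among the genes without a window. A match describes the sequence and is not evidence of binding.

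Library totals lay between 36732137 counts (fx2) and 53606276 counts (fx1). Arhgap31 measured 156, 44.1 and 116 CPM (counts per 1000000, with TMM scaling) in fx1, fx2 and fx3, against 664, 433 and 550 CPM in wt1, wt2 and wt3. All fx/fx libraries were below all wt/wt libraries, with a log2 fold change of -2.38 (SE 0.45). By exact permutation (2-sided), p was 0.1, which is the smallest value that 3 against 3 libraries allow. Marker genes of mammary epithelium summed to 4232, 4707 and 5546 CPM in fx1, fx2 and fx3, against 4857, 4965 and 4192 CPM in wt1, wt2 and wt3, so RNA of epithelial cells was present in every library. The 8 liver markers summed to 10.1, 0.857 and 6.94 CPM in fx1, fx2 and fx3, against 0.111, 9.45 and 2.80 CPM in wt1, wt2 and wt3. Cyp7a1, the rate-limiting enzyme of bile acid synthesis, was the 1 marker of this list at 0 in all 6 libraries.

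Across the pathway, 29 of the 33 genes had a higher mean in fx/fx than in wt/wt tumors, where 49.6% of all tested genes had a log2 fold change above 0. The median log2 fold change was 0.59 over the 33 genes and 0 over all genes tested. At an unadjusted edgeR p under 0.05, 14 of the 33 genes (42.4%) were higher in fx/fx and 0 were lower, against 8.18% higher and 6.04% lower among all genes tested. No gene of the 33 passed an adjusted p under 0.05 in edgeR's quasi-likelihood test, where the share of all genes was 0.0%, and the smallest adjusted p of the list was 0.153. DESeq2 with its own adjustment called 5 of them higher in fx/fx (Hmgcs1, Mvd, Sqle, Msmo1 and Nsdhl) and 0 lower, against 2.9% higher and 1.73% lower among the 17989 genes it tested. limma-voom gave 14 higher and 0 lower at an unadjusted p under 0.05, against 7.53% higher and 6.73% lower among all genes tested. All 3 fx/fx libraries lay above all 3 wt/wt libraries for 14 of the genes (9.74% of all genes did so), and below them for 0 (9.93% of all genes). In whole tumor pieces, more cells of a type and more RNA per cell cannot be told apart.

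**Figure D1:**
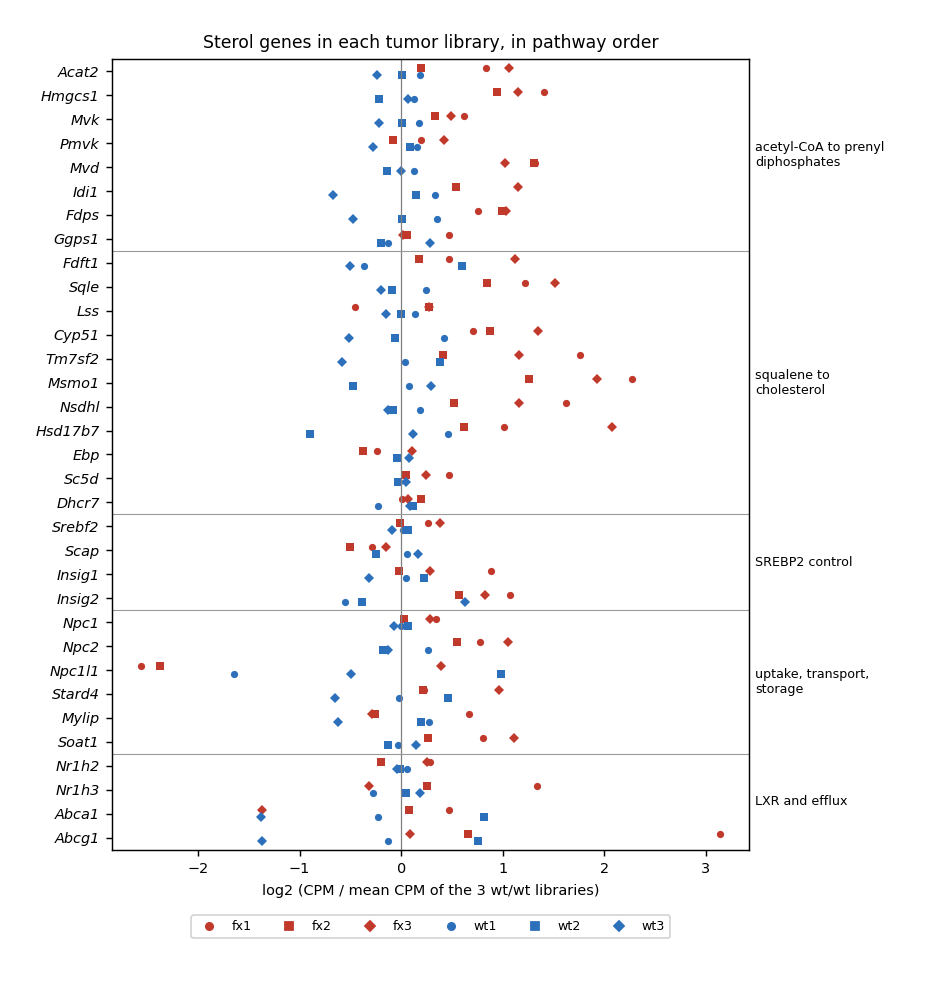
Level of each of the 33 genes in each library, as log2 of its CPM over the mean CPM of the 3 wt/wt libraries, in pathway order (red, fx/fx; blue, wt/wt; the symbol shape gives the replicate number). For Hmgcs1, Mvd, Sqle, Msmo1 and Nsdhl all red points lie right of all blue points, while Lss, Ebp and Dhcr7 have mixed points.

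Most genes past these thresholds were among the 19 synthesis enzymes. Of the enzymes, 18 had a log2 fold change above 0, the median was 0.77, and 11 (57.9%) had an unadjusted edgeR p under 0.05, all higher in fx/fx. Among the other 14 genes of regulation, transport, storage and efflux, 11 were above 0 and the median was 0.33. Of these 14, 3 (21.4%) were higher at that threshold. Among all genes tested, 8.18% were. The difference between the 2 sets was not tested.

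The first 8 enzymes take acetyl-CoA to the prenyl diphosphates. All 8 were above 0, with a median log2 fold change of 0.76. At an unadjusted edgeR p under 0.05, 5 were higher, against 8.18% of all genes tested. Genotypes were separated for 6, with fx/fx higher, against 9.74% of all genes tested. Hmgcs1 (ENSMUSG00000093930, chromosome 13, 119690379 to 119708260, plus strand, GRCm38), which makes HMG-CoA, measured 138, 99.9 and 115 CPM in fx1, fx2 and fx3, against 56.8, 44.5 and 54.5 CPM in wt1, wt2 and wt3. Every fx/fx library was above every wt/wt library. Its mean was 118 ± 18.9 CPM in fx/fx and 51.9 ± 6.49 CPM in wt/wt tumors (SD, n = 3 each), 2.26-fold higher, with a log2 fold change of 1.18 (SE 0.19), an edgeR adjusted p of 0.153 and a DESeq2 adjusted p of 0.000683. Mvd, the decarboxylase that yields isopentenyl diphosphate, measured 18.5, 18.4 and 15.1 CPM in fx1, fx2 and fx3, against 8.09, 6.75 and 7.40 CPM in wt1, wt2 and wt3. The lowest fx/fx value of Mvd was well above the highest wt/wt value. It was 2.33-fold higher, with a log2 fold change of 1.22 (SE 0.23), an edgeR adjusted p of 0.153 and a DESeq2 adjusted p of 0.000211.

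Fdps, which joins isoprene units into farnesyl diphosphate, measured 21.0, 24.8 and 25.3 CPM in fx1, fx2 and fx3, against 15.8, 12.5 and 8.95 CPM in wt1, wt2 and wt3. The genotypes did not overlap, and its log2 fold change was 0.93 (SE 0.26; edgeR unadjusted p = 0.00753, adjusted 0.214). Acat2, the thiolase of the entry step, measured 43.0, 27.5 and 50.3 CPM in fx1, fx2 and fx3, against 27.4, 24.2 and 20.4 CPM in wt1, wt2 and wt3. Here fx2 and wt1 were nearly equal, and the log2 fold change was 0.75 (SE 0.26; edgeR unadjusted p = 0.0213, adjusted 0.269). Idi1, the isomerase of isopentenyl diphosphate, measured 18.8, 19.0 and 29.1 CPM in fx1, fx2 and fx3, against 16.5, 14.5 and 8.19 CPM in wt1, wt2 and wt3, a log2 fold change of 0.77 (SE 0.32; edgeR unadjusted p = 0.0462, adjusted 0.340). For Acat2 and Idi1 the unadjusted p went above 0.05 with some single libraries left out: fx1, fx3, wt2 or wt3 for both, and also fx2 for Idi1.

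The 2 kinases of the mevalonate steps and the branch enzyme did not reach an unadjusted p under 0.05. Mvk, the first kinase, measured 18.4, 15.1 and 16.9 CPM in fx1, fx2 and fx3, against 13.6, 12.1 and 10.3 CPM in wt1, wt2 and wt3, with no overlap but a log2 fold change of 0.49 (SE 0.22; edgeR unadjusted p = 0.0614, adjusted 0.375). Pmvk, the second kinase, had a log2 fold change of 0.19 (SE 0.21), and Ggps1, which makes geranylgeranyl diphosphate for protein prenylation, one of 0.20 (SE 0.23), both with overlapping genotypes.

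Of the 11 enzymes from squalene to cholesterol, 10 were above 0, and the median log2 fold change was 1.01. At an unadjusted edgeR p under 0.05, 6 were higher, against 8.18% of all genes tested. Genotypes were separated for 6, with fx/fx higher, against 9.74% of all genes tested. Msmo1 (ENSMUSG00000031604, chromosome 8, 64718139 to 64733792, minus strand, GRCm38), a monooxygenase that starts removal of the methyl groups left after the Cyp51 step on lanosterol, measured 70.2, 34.7 and 55.2 CPM in fx1, fx2 and fx3, against 15.3, 10.4 and 17.7 CPM in wt1, wt2 and wt3. Its mean was 53.4 ± 17.8 CPM in fx/fx and 14.5 ± 3.72 CPM in wt/wt tumors (SD, n = 3 each), 3.68-fold higher. The log2 fold change of Msmo1 was 1.88 (SE 0.32), with an edgeR adjusted p of 0.153, a DESeq2 adjusted p of 8.0e-05, and an edgeR adjusted p of 0.0356 when no filter on low counts was used. Without that filter, 0.0779% of 29540 genes were called higher and 0.0508% lower in fx/fx, and Msmo1 was the 1 gene of the 33 among them.

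Sqle, squalene epoxidase, a rate-limiting enzyme of the later pathway, measured 125, 96.3 and 153 CPM in fx1, fx2 and fx3, against 63.8, 50.4 and 46.9 CPM in wt1, wt2 and wt3. Its genotypes were separated, at 2.33-fold higher in fx/fx, with a log2 fold change of 1.22 (SE 0.23), an edgeR adjusted p of 0.153 and a DESeq2 adjusted p of 0.00218. Nsdhl, which acts after Msmo1 in removing the methyl groups, measured 116, 53.8 and 84.0 CPM in fx1, fx2 and fx3, against 42.6, 35.6 and 34.4 CPM in wt1, wt2 and wt3. All fx/fx values again exceeded all wt/wt values, with a log2 fold change of 1.17 (SE 0.28), an edgeR adjusted p of 0.185 and a DESeq2 adjusted p of 0.0224. That DESeq2 call was lost when fx1, fx3, wt1, wt2 or wt3 was left out, with adjusted p between 0.0636 and 0.125, while the calls of Hmgcs1, Mvd, Sqle and Msmo1 were kept whichever library was left out. Hsd17b7, the keto-sterol reductase of the same methyl removal, measured 37.5, 28.4 and 78.3 CPM in fx1, fx2 and fx3, against 25.6, 9.92 and 20.1 CPM in wt1, wt2 and wt3. The genotypes were separated, with a log2 fold change of 1.37 (SE 0.47; edgeR unadjusted p = 0.0197, adjusted 0.265), and the unadjusted p was 0.0754 without fx3 and 0.0546 without wt2. Other tested genes within the same 20 Mb stretch of chromosome 1 had a median log2 fold change of 0.53, and relative to it Hsd17b7 stood at 0.84.

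Cyp51, the demethylase of lanosterol, measured 63.1, 70.8 and 98.2 CPM in fx1, fx2 and fx3, against 51.6, 37.0 and 27.0 CPM in wt1, wt2 and wt3, with no overlap and a log2 fold change of 1.01 (SE 0.28; edgeR unadjusted p = 0.00841, adjusted 0.217). Tm7sf2, a sterol reductase that follows Cyp51, measured 35.6, 13.98 and 23.5 CPM in fx1, fx2 and fx3, against 10.8, 13.7 and 7.03 CPM in wt1, wt2 and wt3. The fx2 and wt2 values of Tm7sf2 nearly touched, and its log2 fold change was 1.22 (SE 0.39; edgeR unadjusted p = 0.0161, adjusted 0.249), with an unadjusted p of 0.0704 without fx1 and 0.0543 without wt3. Fdft1, squalene synthase, measured 49.5, 40.5 and 77.4 CPM in fx1, fx2 and fx3, against 27.6, 54.3 and 25.2 CPM in wt1, wt2 and wt3. Its wt2 value lay within the fx/fx range, and the log2 fold change was 0.64 (SE 0.36; edgeR unadjusted p = 0.117, adjusted 0.471). Without wt2 it was 1.07, with an unadjusted p of 0.0128.

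The other enzymes of this stretch were close to equal between the genotypes. Lss, which closes the sterol rings, measured 46.0, 76.4 and 76.1 CPM in fx1, fx2 and fx3, against 69.2, 63.2 and 56.9 CPM in wt1, wt2 and wt3, with fx1 the lowest of the 6 and a log2 fold change of 0.07 (SE 0.23). Ebp, a sterol isomerase, measured 53.3, 48.2 and 67.8 CPM in fx1, fx2 and fx3, against 61.2, 61.0 and 66.0 CPM in wt1, wt2 and wt3, a log2 fold change of -0.15 (SE 0.18). Sc5d, the desaturase after Ebp, had a log2 fold change of 0.27 (SE 0.17). Dhcr7, the reductase of a final step, measured 140, 160 and 146 CPM in fx1, fx2 and fx3, against 119, 151 and 148 CPM in wt1, wt2 and wt3, a log2 fold change of 0.09 (SE 0.17). Thus the steps from Sqle to Hsd17b7, apart from Lss, had log2 fold changes between 1.01 and 1.88, and Ebp, Sc5d and Dhcr7 between -0.15 and 0.27. The unadjusted edgeR p of these 3 genes and Lss lay between 0.161 and 0.773, which does not show that the genotypes are equal.

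**Figure D2:**
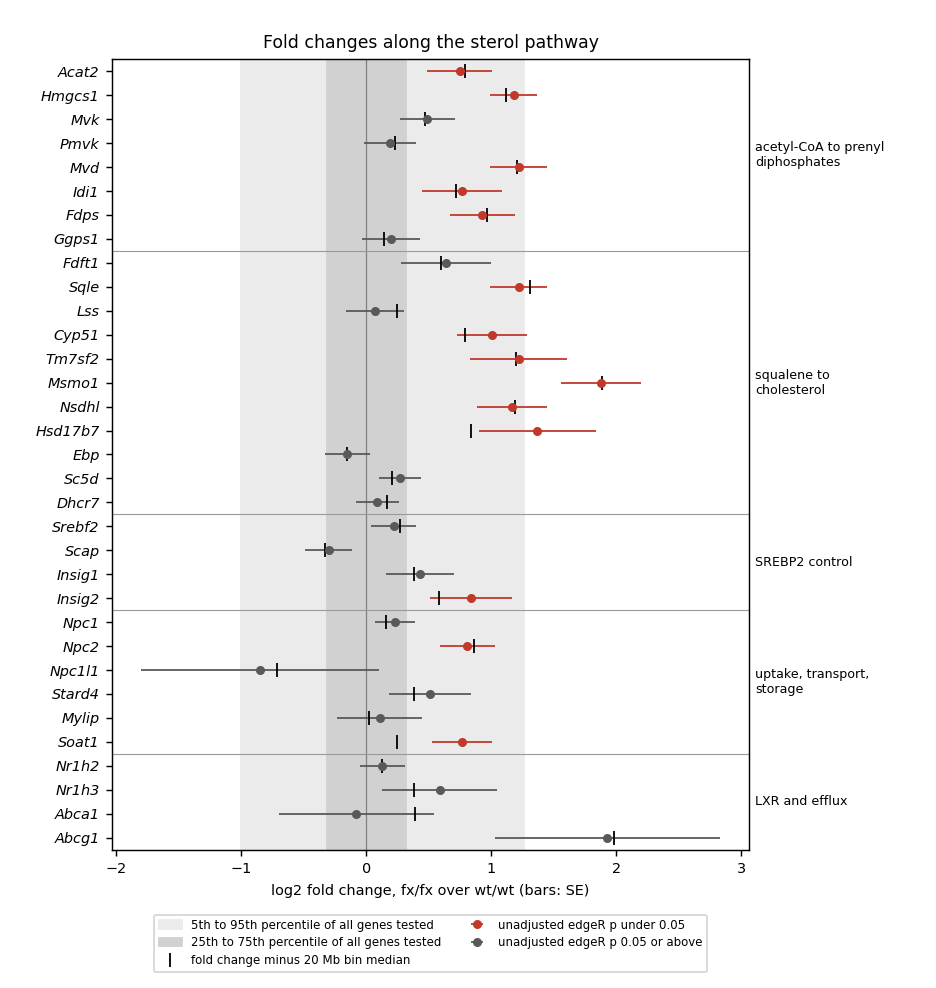
Log2 fold change, fx/fx over wt/wt, of each of the 33 genes from edgeR (points, with SE bars; red where the unadjusted p is under 0.05), beside the fold change minus the median of the gene's 20 Mb chromosome bin (black ticks). Grey bands give the 5th to 95th percentile (-1.0 to 1.26) and the 25th to 75th percentile (-0.31 to 0.32) of all genes tested; Msmo1 at 1.88 lies beyond the wider band.

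Per length of exon, the enzymes can be ranked by their mean level. In fx/fx tumors the highest mean level was that of Nsdhl, at 29.6 ± 10.9 CPM per kilobase, with Hmgcs1 at 25.6 ± 4.12, Dhcr7 at 25.6 ± 1.69 and Ebp at 24.4 ± 4.39 CPM per kilobase (SD, n = 3). Neighbours in this order differed by less than their SDs. In wt/wt tumors Ebp, at 27.2 ± 1.24 CPM per kilobase, was the highest, and Nsdhl averaged 13.2 ± 1.54 and Hmgcs1 11.3 ± 1.41 CPM per kilobase (SD, n = 3). Dhcr7 came after Ebp in wt/wt tumors, at 23.9 CPM per kilobase. Tm7sf2 was the lowest enzyme in both, at 4.36 ± 1.94 CPM per kilobase in fx/fx and 1.88 ± 0.597 CPM per kilobase in wt/wt tumors. Msmo1 stood next to the lowest in wt/wt tumors, and its level per length was 8.69 ± 2.90 CPM per kilobase in fx/fx and 2.36 ± 0.606 CPM per kilobase in wt/wt tumors. The levels of Tm7sf2 are less certain, because it overlaps Vps51 on the same strand, and the headers give no option to count reads that fall on more than 1 gene.

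**Figure D3:**
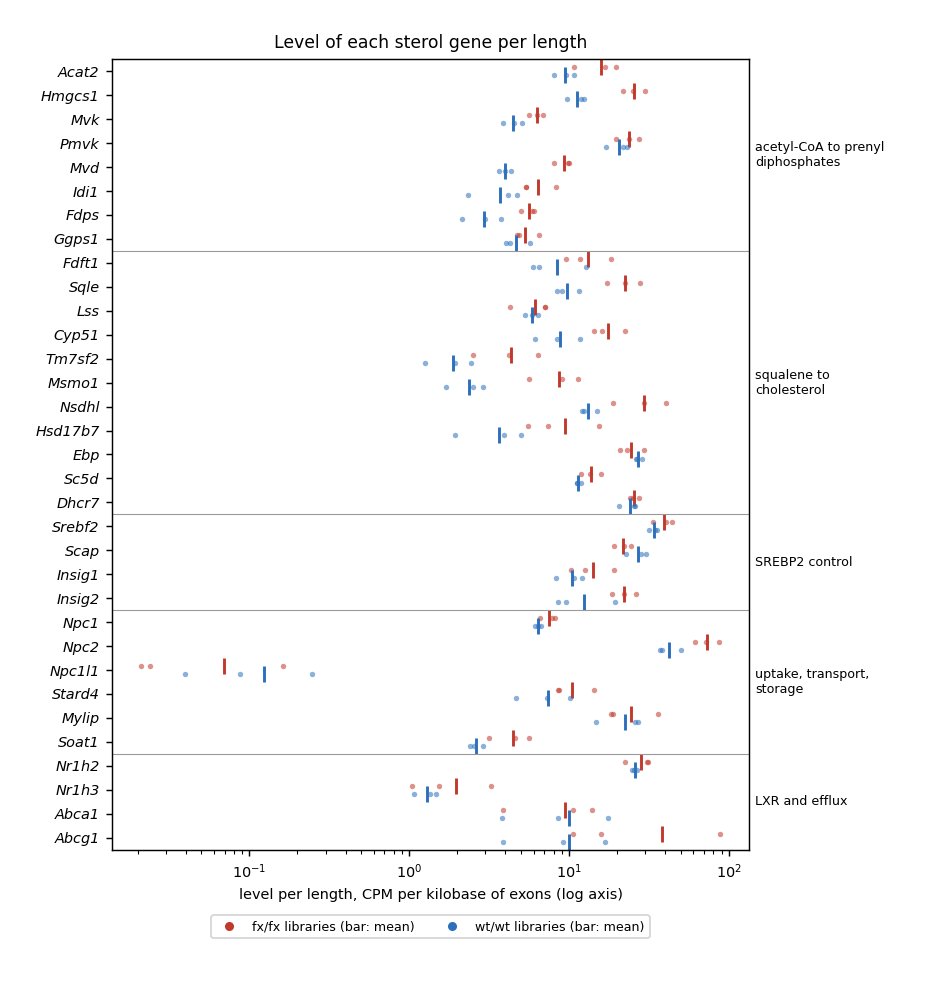
Level per length of each of the 33 genes, in CPM per kilobase of exons on a log axis, for the fx/fx libraries (red) and the wt/wt libraries (blue), with bars at the means. Npc2 has the highest mean in both genotypes (73.4 in fx/fx and 42.0 in wt/wt) and Npc1l1 the lowest (0.0693 in fx/fx and 0.124 in wt/wt).

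The 4 genes that control SREBP2 had a median log2 fold change of 0.33. Of these, 3 were above 0, and none had separated genotypes. Separation with fx/fx higher held for 9.74% of all genes tested, and with fx/fx lower for 9.93%. A count of 0 among 4 genes is close to those shares. Insig2 was the 1 gene of the 4 higher at an unadjusted edgeR p under 0.05, and 0 were lower. The shares of all genes tested were 8.18% higher and 6.04% lower. Srebf2, the gene of SREBP2 itself, measured 293, 241 and 317 CPM in fx1, fx2 and fx3, against 248, 256 and 228 CPM in wt1, wt2 and wt3. The fx2 value lay among the wt/wt values, and the log2 fold change was 0.22 (SE 0.18; edgeR unadjusted p = 0.256, adjusted 0.630). Scap, the escort of SREBP2, measured 165, 142 and 181 CPM in fx1, fx2 and fx3, against 209, 169 and 225 CPM in wt1, wt2 and wt3, a log2 fold change of -0.30 (SE 0.19; edgeR unadjusted p = 0.145, adjusted 0.511). Its genotypes overlapped through fx3 and wt2.

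Insig1, a retention protein that is itself an SREBP target, measured 59.5, 31.7 and 39.1 CPM in fx1, fx2 and fx3, against 33.2, 37.5 and 25.8 CPM in wt1, wt2 and wt3. Only fx1 stood clearly apart, and the log2 fold change was 0.43 (SE 0.27; edgeR unadjusted p = 0.155, adjusted 0.522). Insig2, its paralog, measured 91.0, 64.1 and 76.6 CPM in fx1, fx2 and fx3, against 29.5, 33.1 and 67.1 CPM in wt1, wt2 and wt3. The wt3 value lay within the fx/fx range, and the log2 fold change was 0.84 (SE 0.33; edgeR unadjusted p = 0.0375, adjusted 0.320). Without wt3 the log2 fold change of Insig2 was 1.29, with an unadjusted edgeR p of 0.00111 and a DESeq2 adjusted p of 0.00172, while without fx1, fx3, wt1 or wt2 the unadjusted p was above 0.05.

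Of the 6 genes of uptake, transport and storage, 5 were above 0, and the median log2 fold change was 0.37. At an unadjusted edgeR p under 0.05, 2 (33.3%) were higher, with separated genotypes. Among all genes tested, 8.18% were higher at that threshold and 9.74% were separated with fx/fx higher. Npc2, which hands cholesterol from the lysosome lumen to NPC1, measured 390, 335 and 472 CPM in fx1, fx2 and fx3, against 275, 202 and 208 CPM in wt1, wt2 and wt3. All fx/fx values were above all wt/wt values, at 1.75-fold higher, with a log2 fold change of 0.81 (SE 0.22; edgeR unadjusted p = 0.00641, adjusted 0.210; DESeq2 adjusted p = 0.0604). Its membrane partner Npc1 had a log2 fold change of 0.23 (SE 0.16). Soat1, which esterifies cholesterol for storage, measured 44.8, 30.9 and 55.3 CPM in fx1, fx2 and fx3, against 25.1, 23.5 and 28.3 CPM in wt1, wt2 and wt3. The genotypes were separated, with a log2 fold change of 0.77 (SE 0.24; edgeR unadjusted p = 0.0139, adjusted 0.241), but other tested genes in its 20 Mb stretch of chromosome 1 had a median of 0.52, and relative to it Soat1 stood at 0.25.

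Stard4, a cytosolic sterol carrier, had a log2 fold change of 0.51 (SE 0.33), which was 0.25 without wt3 and 0.23 without fx3. Mylip, the ubiquitin ligase that degrades lipoprotein receptors and is an LXR target, had a log2 fold change of 0.11 (SE 0.34), with 116 CPM in fx1 above all other libraries. Npc1l1, the intestinal cholesterol importer, was near the limit of detection, with 5, 4 and 30 counts in fx1, fx2 and fx3, against 8, 49 and 18 counts in wt1, wt2 and wt3. Its log2 fold change of -0.85 was smaller than its SE of 0.95.

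The 4 genes of the LXR receptors and cholesterol export showed no separated genotypes and no unadjusted edgeR p under 0.05. Among all genes tested, 9.74% were separated with fx/fx higher and 9.93% with fx/fx lower. At that p threshold 8.18% of all genes were higher and 6.04% lower. A count of 0 among 4 genes is close to these shares. Abcg1, a cholesterol exporter and LXR target, measured 357, 64.2 and 43.0 CPM in fx1, fx2 and fx3, against 37.2, 68.7 and 15.7 CPM in wt1, wt2 and wt3. A single library, fx1, set its log2 fold change of 1.93 (SE 0.90; edgeR unadjusted p = 0.0681, adjusted 0.391), which was 0.39 without fx1 and had an unadjusted p of 0.0442 without fx2 and 0.0291 without fx3. Abca1, the exporter to lipid-poor apolipoprotein, measured 144, 110 and 40.2 CPM in fx1, fx2 and fx3, against 88.5, 182 and 39.7 CPM in wt1, wt2 and wt3. It varied more within each genotype than between them, with a log2 fold change of -0.08 (SE 0.62). Among the receptors, Nr1h2 (LXR beta) had a log2 fold change of 0.13 (SE 0.18) and Nr1h3 (LXR alpha) one of 0.59 (SE 0.46). Nr1h3 was highest in fx1, at 8.23 CPM, and its log2 fold change without fx1 was -0.01.

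Within a genotype the libraries differed, and their order was not the same in every part of the pathway. The median log2 level of the 19 synthesis enzymes, relative to the wt/wt mean, was 0.76, 0.46 and 1.08 in fx1, fx2 and fx3, against 0.14, -0.01 and -0.14 in wt1, wt2 and wt3. For the 4 LXR and efflux genes this median was 1.04, 0.31 and -0.02 in fx1, fx2 and fx3. In wt1, wt2 and wt3 it was 0.05, 0.53 and -0.58. Library fx2 was the lowest of the fx/fx libraries for 21 of the 33 genes, and wt3 the lowest of the wt/wt libraries for 19. Library wt3 was also the lowest of all 6 for 17 of the 33 genes, 10 of them synthesis enzymes. For the 14 genes with every fx/fx library above every wt/wt library, the lowest of the 6 has to be a wt/wt library. The same counts were not made over all genes tested, so they are not read as a trait of fx2 or wt3.

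Library wt3 stood apart at 1 place on the X chromosome that holds a gene of SREBP processing. Mbtps2, the site-2 protease that cuts SREBP2 in the Golgi membrane, measured 47.1, 38.2 and 46.3 CPM in fx1, fx2 and fx3, against 43.8, 37.4 and 1.44 CPM in wt1, wt2 and wt3. All 10 tested protein-coding genes from Sat1 to Sh3kbp1 (X chromosome, 155213132 to 159978069, GRCm38; limits chosen after the values were seen) were lowest in wt3, at 1.82% to 10.8% of the mean of the other 5 libraries. For the 10 tested protein-coding genes on the lower-coordinate side the median was 74.1%, and for those on the other side 104%. The desaturase genes, which lie outside this region, were also low in wt3. Scd1, an SREBP-responsive desaturase, measured 1160, 1363 and 591 CPM in fx1, fx2 and fx3, against 824, 2275 and 104 CPM in wt1, wt2 and wt3. Scd2, its relative, measured 1436, 1422 and 1831 CPM in fx1, fx2 and fx3, against 870, 1684 and 134 CPM in wt1, wt2 and wt3. Fads2, the desaturase of polyunsaturated fatty acids, measured 87.0, 48.1 and 67.2 CPM in fx1, fx2 and fx3, against 51.9, 62.3 and 5.15 CPM in wt1, wt2 and wt3. All 3 desaturases were lowest in wt3, whereas Insig2 was highest there among the wt/wt libraries. The part of the low X region in the sterol results was not tested. Without wt3, the number of the 33 sterol genes higher at an unadjusted p under 0.05 was 11, against 6.41% of all genes tested, 27 of 33 were above 0, and the median log2 fold change was 0.43. Of the 19 synthesis enzymes, 8 were higher at that threshold without wt3 and the median was 0.63.

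**Figure D4:**
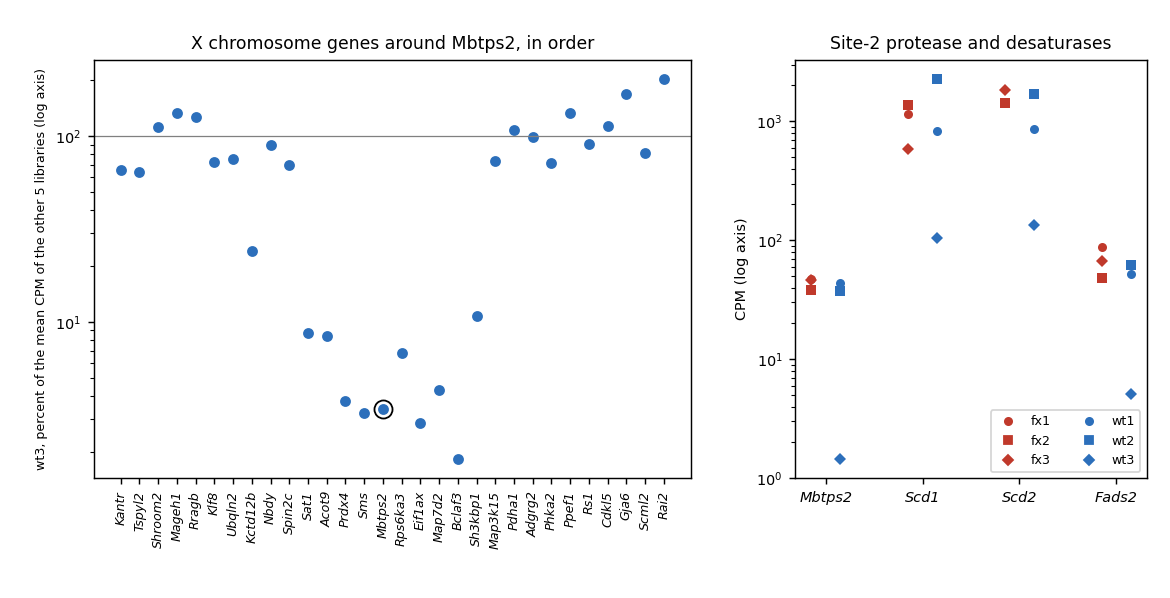
Left, the level in wt3 as a percent of the mean of the other 5 libraries (log axis) for tested protein-coding genes in chromosome order around Mbtps2 (ringed); the 10 genes from Sat1 to Sh3kbp1 lie between 1.82% and 10.8%. Right, CPM (log axis) of Mbtps2, Scd1, Scd2 and Fads2 in each fx/fx library (red) and wt/wt library (blue), with wt3 lowest for each gene.

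Marker genes of other cell types also differed between the libraries. Fibroblast markers summed to 1022, 1537 and 842 CPM in fx1, fx2 and fx3, against 410, 539 and 317 CPM in wt1, wt2 and wt3. Of these 12 markers, 11 had an unadjusted edgeR p under 0.05, all higher in fx/fx, against 8.18% of all genes tested. Adipocyte markers summed to 145, 469 and 197 CPM in fx1, fx2 and fx3, against 117, 47.4 and 46.5 CPM in wt1, wt2 and wt3, with 7 of 12 higher at that threshold. Library fx2 had the highest sums of both lists and the lowest median of the sterol enzymes among the fx/fx libraries. Between the genotypes, both sums and that median were higher in every fx/fx than in every wt/wt library. Macrophage markers, from cells that also handle much cholesterol, summed to 675, 849 and 366 CPM in fx1, fx2 and fx3, against 623, 617 and 530 CPM in wt1, wt2 and wt3, with 2 of 12 higher. Endothelial markers summed to 300, 262 and 152 CPM in fx1, fx2 and fx3, against 155, 126 and 152 CPM in wt1, wt2 and wt3, with 6 of 10 higher. Epithelial markers, whose sums overlapped, averaged 0.39, 0.19 and 0.48 relative to the wt/wt mean on the log2 scale in fx1, fx2 and fx3, against -0.09, 0.16 and -0.07 in wt1, wt2 and wt3, with 9 of 11 above 0 and 2 higher at that threshold. By this average the fx/fx libraries had the same order as for the synthesis enzymes. By the summed level of the same markers they did not, with fx1 the lowest of the fx/fx libraries. No defining marker of these 5 lists was at 0 in all libraries. Ribosomal protein genes averaged 0.93 lower on the log2 scale than the wt/wt mean in fx1, and 0.15 and 0.13 lower in fx2 and fx3. Without fx1, 10 of the 33 sterol genes were higher at an unadjusted p under 0.05, against 5.55% of all genes tested, and the median log2 fold change was 0.40, with 8 of the 19 synthesis enzymes and a median of 0.82. The part of these cell types and of the fx1 difference in the sterol results was not tested.

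Genes that neighbour the pathway gave a background of related functions, in 5 further lists. The first list held 14 genes that use prenyl diphosphates for dolichol, ubiquinone or protein prenylation. At an unadjusted edgeR p under 0.05, 0 of them were higher and 5 lower in fx/fx. Among all genes tested, 8.18% were higher and 6.04% lower. The median log2 fold change of the 14 genes was -0.10. Dhdds, of dolichol synthesis, had a log2 fold change of -0.75 (SE 0.25), Coq2, of ubiquinone synthesis, one of -0.47 (SE 0.20), and Zmpste24, the protease that trims prenylated prelamin A, one of -0.46 (SE 0.18). Dhdds and Zmpste24, like Scp2 and Plin2 of the lists that follow, lie on chromosome 4, as do 4 of the 5 lower genes. The median log2 fold change of all tested genes on chromosome 4 was -0.51, and all 9 genes of the further lists there had negative fold changes, with a median of -0.53. Relative to the median of its 20 Mb stretch, Dhdds stood at -0.21, Zmpste24 at 0.08, Scp2 at -0.05 and Plin2 at -0.07. The unadjusted p of Coq2, on chromosome 5, was above 0.05 without fx2, fx3, wt1, wt2 or wt3, that of Zmpste24 without fx1, fx3, wt1 or wt3, and that of Dhdds without fx3.

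Among 9 genes of SREBP cleavage and sterol-regulated degradation, 0 were higher and 0 lower at that threshold, with Rnf145, a ubiquitin ligase of the endoplasmic reticulum, at 0.17 (SE 0.19), Erlin2, a membrane scaffold of the same degradation, at -0.07 (SE 0.20), Ufd1, an adaptor of p97, at 0.19 (SE 0.20) and Mbtps2 at 0.67 (SE 0.94), or 0.10 without wt3, on the log2 scale. Of 21 genes of sterol transport and oxysterols, 2 were higher, the lipoprotein receptors Vldlr at 0.78 (SE 0.29) and Lrp1 at 0.70 (SE 0.30), and 1 was lower, the sterol carrier Scp2 at -0.53 (SE 0.20). These shares (9.52% higher) were near those of all genes tested, 8.18% higher and 6.04% lower. The unadjusted p went above 0.05 for Vldlr without fx1, wt1 or wt3, for Lrp1 without fx1, fx2, wt1 or wt3, and for Scp2 without fx1, fx3, wt1 or wt3. Gramd1c, a sterol transfer protein, was at -0.46 (SE 0.20), with an unadjusted p of 0.0546. The list of LXR targets, with RXR partner receptors of LXR, had 7 genes tested, of which 1 (14.3%, against 8.18% of all genes) was higher. This was the phospholipid transfer protein Pltp, at 1.19 (SE 0.49). Its unadjusted edgeR p was 0.0428, and it was above 0.05 without fx1, fx2, wt1, wt2 or wt3, while limma-voom gave 0.0835. Plin2, a lipid droplet coat protein, was at -0.50 (SE 0.24) on the log2 scale, with Lpcat3 at 0.19 (SE 0.18) and the partner receptor Rxrb at 0.13 (SE 0.15).

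Fatty acid synthesis, which the related SREBP1 controls, had the most such genes of the 5 further lists: 6 of 15 (40.0%, against 8.18% of all genes) were higher and 1 lower at an unadjusted edgeR p under 0.05. Acss2, which makes acetyl-CoA from acetate for both pathways, measured 27.6, 46.1 and 25.1 CPM in fx1, fx2 and fx3, against 17.04, 12.1 and 14.8 CPM in wt1, wt2 and wt3. Its genotypes were separated, with a log2 fold change of 1.17 (SE 0.29; edgeR adjusted p = 0.185; DESeq2 adjusted p = 0.0222). Me1, a source of NADPH for lipid synthesis, measured 690, 362 and 535 CPM in fx1, fx2 and fx3, against 231, 206 and 272 CPM in wt1, wt2 and wt3, a log2 fold change of 1.16 (SE 0.27; edgeR adjusted p = 0.185; DESeq2 adjusted p = 0.0132). The DESeq2 call of Acss2 was lost without wt1, wt2 or wt3 (adjusted p between 0.0543 and 0.126), and that of Me1 without fx1, wt1 or wt2 (between 0.0712 and 0.0988). Both had separated genotypes, and Elovl6, a fatty acid elongase, was at 0.63 (SE 0.16) and Mid1ip1, an activator of acetyl-CoA carboxylase, at 0.84 (SE 0.24) on the log2 scale. Srebf1, the gene of SREBP1, was lower on average, at 958, 963 and 796 CPM in fx1, fx2 and fx3, against 1836, 3553 and 886 CPM in wt1, wt2 and wt3, a log2 fold change of -1.21 (SE 0.47; edgeR unadjusted p = 0.0345). Other tested genes between 60 and 80 Mb on chromosome 11, where Srebf1 lies, had a median log2 fold change of -0.47. Relative to that median, Srebf1 stood at -0.74. The lowest wt/wt value of Srebf1, again in wt3, lay within the fx/fx range, while wt2 was the highest. The log2 fold change was -1.58 without wt3 (unadjusted p = 0.00342) and -0.59 without wt2 (unadjusted p = 0.143), and the unadjusted p was also above 0.05 without fx1, fx2 or fx3.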

How the data were processed

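Total RNA was sequenced in 6 tumor libraries, per the labels' protocols after TRIZOL extraction and RNeasy purification. The deposited values are raw whole-number counts for each gene. The authors counted read pairs, per the file headers, with featureCounts 1.6.0 on the Ensembl 93 annotation of GRCm38 with strand option 2, and the submitters' processing notes name STAR 2.5.1b and featureCounts 1.4.6. No option to count pairs that overlap several genes appears in the headers, so genes with overlapping neighbours can lose pairs, and whether the kit kept strand is not given in the sources used. Ggps1, Fdft1, Cyp51 and Npc1 overlap expressed genes on the opposite strand, and Tm7sf2, Fdps, Srebf2, Nr1h3 and Abcg1 other genes on the same strand.

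Symbols came from GENCODE M21 (54165 of 54232 identifiers). Counts were tested with edgeR 4.0.16 in R 4.3.3 (filterByExpr, TMM, robust quasi-likelihood test, 2-sided, Benjamini-Hochberg over all genes tested, adjusted p under 0.05). DESeq2 1.42.0 and limma-voom (limma 3.58.1), DESeq2 size factors, no filter, a replicate block, 20 Mb bin medians and each library left out were alternatives, and DESeq2 with a library left out was added after seeing the data. The steps were tested on simulated data. A count of 0 allows up to 3 counts, which is between 0.056 and 0.0817 CPM at these depths and covers counting error only. CPM per kilobase uses the exon length given in the files. All 33 genes are named, with up to 4 genes of each further list with the smallest p, and Sat1, Sh3kbp1, the desaturases and Srebf1 were added after their values were seen. A gene that this rule covers is not reported here. The genes and lists were chosen with earlier results of these data known.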

Additional observations from a re-analysis of the deposited data

How the results depend on the processing

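With no adjusted edgeR call among the 33 genes, the count depended on the tool: DESeq2 called 5 and edgeR without a low-count filter 1, against 833 and 38 of all genes. DESeq2 without fx1, fx2, fx3, wt1, wt2 or wt3 called 4, 10, 5, 7, 4 and 5 of the 33 genes, and 508, 1626, 856, 412, 565 and 547 of all genes. With edgeR and single libraries left out, all-gene calls ranged from 0 to 2. The number of the 33 genes higher at an unadjusted p under 0.05 ranged from 10 to 14 and lower from 0 to 1 (Npc1l1 without fx3, at -2.42). Separated genes of the 33 ranged from 14 to 21 higher and 0 to 3 lower. Over all genes, 949 to 1548 were higher and 731 to 1519 lower at an unadjusted p under 0.05, and 2145 to 3120 were separated higher and 2293 to 2891 lower; smaller groups separate more easily. Median log2 fold changes ranged over 0.40 to 0.74 for all 33 genes, 0.57 to 0.98 for the synthesis enzymes, 0.56 to 0.91 for the acetyl-CoA to prenyl diphosphate steps, 0.79 to 1.23 for squalene to cholesterol, 0.15 to 0.47 for SREBP2 control, 0.22 to 0.48 for uptake and storage, and 0.01 to 0.61 for LXR and efflux. Signs turned for Lss without fx2 (-0.05), fx3 (-0.03) or wt3 (-0.02; range -0.05 to 0.26), Dhcr7 without wt1 (range -0.01 to 0.15), Npc1l1 without wt2 (range -2.42 to 0.10), Mylip without fx1 or wt3 (range -0.29 to 0.29), Nr1h3 without fx1 (range -0.01 to 0.92), and Abca1 without fx3 or wt2 (range -0.47 to 0.61); none of these 6 genes was called. Minus the chromosome bin median, the median of the 33 genes was 0.39, and Abca1 also turned sign, to 0.39. The cause of these changes was not tested. Same-numbered libraries had correlations of deviations of -0.085, -0.0946 and 0.0569. Libraries fx1, fx2 and fx3 each correlated best with a wt/wt library of another number. With 3 libraries per genotype, these values cannot decide whether same-numbered libraries were paired. With the replicate block, edgeR called 0 of the 33 genes and 13 were higher at an unadjusted p under 0.05, with a median of 0.53. The share of all genes higher with the block is not given here, so the 13 cannot be set against a background. DESeq2 size factors and limma-voom left the sign of all 33 genes and the count of adjusted calls as they were. Counts of separated genes have no test and were not recomputed under other tests or the block. Apart from Npc1l1, each of the 33 genes had at least 108 counts in every library, and depth limits the value of Npc1l1 most.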
